A study of Mus musculus with 383 samples.

Results

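Vagal motor nuclei that carried reads of Cartpt and none of Grp are described here: 76 nuclei of the 383 in the series. They were chosen by a rule on read counts. A nucleus needed at least 500000 reads, at least 1000 genes with a read, a read of Chat or Slc5a7, a read of Tbx20, no read of Grp and at least 5 reads of Cartpt. The 154 nuclei that met the same conditions with 0 reads of Cartpt were the comparison, and 7 nuclei with 1 to 4 reads lay between. Cartpt and Grp chose the nuclei, so their values are given as a description.

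The nuclei came from the vagal motor nucleus of the dorsal brainstem, in male Chat-IRES-Cre mice on a C57BL/6 background, in which Cre recombinase is made by cells that use the choline acetyltransferase gene. The mice received 100 nL of AAV9-DIO-H2b-mCherry, a virus that labels nuclei red where Cre is active, at 10 weeks of age. The tissue was collected after a further 16 days, when they were 12 weeks old. Both groups of nuclei share this genotype, virus and age, so no untreated or uninjected group was compared. Dissected tissue was pooled before nuclei positive for mCherry and for the DNA dye NucBlue were sorted into 96-well plates, and Smart-seq2 libraries were made with 22 amplification cycles. The protocol places the collected brain sections around the SCN, although it names the vagal motor nucleus as the tissue, and this was not resolved. No animal is named for any nucleus. The series is therefore 1 sample, nuclei are not replicates, and no test between nuclei was made. Intervals are exact 95% intervals (Clopper-Pearson) on numbers of nuclei. They cover counting error only, with nuclei taken as independent draws, and leave out differences between animals. The reads carry no molecular identifiers.

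Cartpt encodes the precursor of the CART peptides, named for cocaine- and amphetamine-regulated transcript. Prohormone convertases cut the precursor inside dense-core vesicles, from which the peptides are released beside the classical transmitter. CART peptides are known for reducing food intake and for their presence in autonomic neurons, and the motor neurons of this nucleus are parasympathetic neurons that release acetylcholine onto ganglia of the gut and other organs.

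The defining markers of cholinergic visceral motor neurons were present in both groups. With each nucleus thinned at random to 500000 reads, so that depth was equal, Chat, the acetylcholine-synthesising enzyme, had a read in 98.7% of Cartpt nuclei and 98.1% of Cartpt 0 nuclei. Slc5a7, the choline transporter, had a read in 98.7% and 97.4%, and Slc18a3, the vesicular acetylcholine transporter, in 97.4% and 96.1%. Shares this high cannot differ much, and the level of Slc18a3, which did differ, is given below. Tbx20, a T-box factor that visceral motor neurons need, had a read in 98.7% and 96.1%, and a read of Tbx20 and of Chat or Slc5a7 was part of the rule. Slc18a3 lies inside the span of Chat, so reads of these neighbours may be mixed. Reads per nucleus had a median of 1455377 in Cartpt nuclei and 1480255 in Cartpt 0 nuclei, and genes with a read at 500000 reads a median of 10328.5 and 10053. The median share of mitochondrial reads was 0.114% in Cartpt nuclei and 0.0615% in Cartpt 0 nuclei, and that of ribosomal protein genes 0.174% and 0.126%. The part of these shares in the results below was not tested, except where values from nuclei of low mitochondrial share are given.

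Cartpt level varied widely among the 76 nuclei. On the CPM scale, on which the reads of each nucleus sum to 1000000, Cartpt had a lowest value of 2.72, a median of 50.7 and a highest value of 726, and in reads it ran from 6 to 782. The nuclei just inside the threshold had 6, 6, 6, 7 and 8 reads, and the 7 nuclei outside it had 1 to 4. On the CPM scale both sides met, at 2.72 inside and 3.05 outside. The nuclei are numbered 1 to 384 in the labels, and they were set apart into 4 blocks of 96 numbers to see whether results held throughout. Cartpt nuclei made up 35.4%, 26.3%, 29.3% and 36.8% of the nuclei that met the other conditions in the 4 blocks, and 32.1% (26.2 to 38.4) over all 237.

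**Figure D1:**
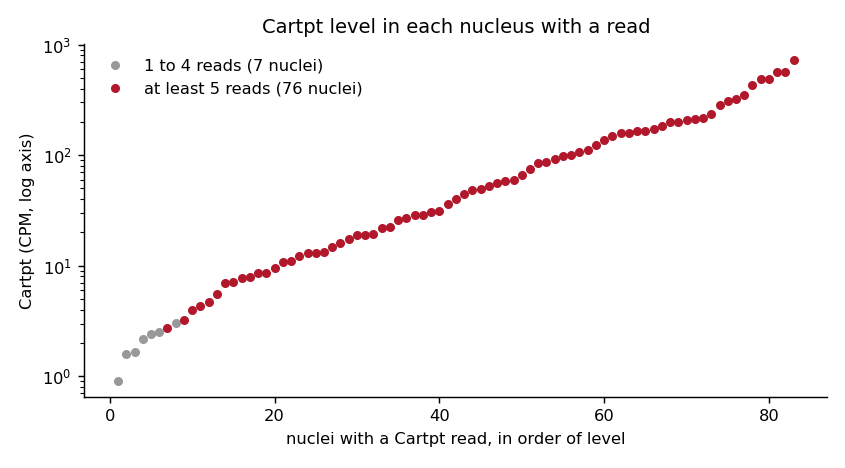
Cartpt level in CPM, on a log axis, of each nucleus with a Cartpt read, in order of level. Red points are the 76 Cartpt nuclei and grey points the 7 nuclei with 1 to 4 reads; the levels form a continuous series from 0.912 to 726 CPM without a gap at the threshold.

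The promoter sequences of Cartpt and of 4 genes found more often in Cartpt nuclei are shown because each holds a short motif of a signalling pathway named below. They are the 250 bases before the gene's start in RefSeq (build GRCm38.p6), 5′ to 3′ on the gene's own strand. In Cartpt, at chr13:99900684-99900933 on the minus strand, the capitals mark TGACGTCA, the cAMP response element, the site bound by CREB. It starts at position -112 from the gene's start. In Trem2 (chr17:48346151-48346400, plus strand), Tagln2 (chr1:172499996-172500245, plus strand), Syt10 (chr15:89841861-89842110, minus strand) and Tbx3os1 (chr5:119671509-119671758, minus strand), the capitals mark GGCGCC, a GC-rich palindrome known to be bound by Smad proteins of the BMP pathway. The Cartpt window lies inside the RefSeq span of the gene, which begins further upstream, and the Syt10 window overlaps the upstream end of its gene's span.
Cartpt: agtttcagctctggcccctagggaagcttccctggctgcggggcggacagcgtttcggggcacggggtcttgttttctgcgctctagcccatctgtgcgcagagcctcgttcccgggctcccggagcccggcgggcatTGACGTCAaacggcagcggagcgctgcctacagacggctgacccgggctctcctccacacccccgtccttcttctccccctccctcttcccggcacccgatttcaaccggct
Trem2: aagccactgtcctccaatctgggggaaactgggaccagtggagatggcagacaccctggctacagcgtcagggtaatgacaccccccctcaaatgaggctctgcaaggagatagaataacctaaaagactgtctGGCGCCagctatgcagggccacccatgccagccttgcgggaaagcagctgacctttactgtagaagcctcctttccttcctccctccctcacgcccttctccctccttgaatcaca
Tagln2: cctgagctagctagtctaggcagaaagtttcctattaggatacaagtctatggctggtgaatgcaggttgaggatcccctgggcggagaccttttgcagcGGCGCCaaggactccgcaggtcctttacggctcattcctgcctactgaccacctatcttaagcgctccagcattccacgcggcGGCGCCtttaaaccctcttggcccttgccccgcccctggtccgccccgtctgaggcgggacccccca
Syt10: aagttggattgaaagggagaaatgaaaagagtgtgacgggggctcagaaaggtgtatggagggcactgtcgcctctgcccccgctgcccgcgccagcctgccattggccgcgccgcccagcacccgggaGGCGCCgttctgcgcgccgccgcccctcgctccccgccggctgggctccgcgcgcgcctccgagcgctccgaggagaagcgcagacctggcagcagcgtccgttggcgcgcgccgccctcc
Tbx3os1: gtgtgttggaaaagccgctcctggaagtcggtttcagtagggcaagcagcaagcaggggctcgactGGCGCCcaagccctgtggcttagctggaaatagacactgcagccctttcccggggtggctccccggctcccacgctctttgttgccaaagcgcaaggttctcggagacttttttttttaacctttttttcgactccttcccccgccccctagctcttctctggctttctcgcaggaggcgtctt
Over all 32851 RefSeq promoter windows of this length, searched on both strands, TGACGTCA occurred in 508 (1.55%) and GGCGCC in 3149 (9.59%). Of the genes named by a share difference, 10 including Cartpt had a window, of which 1 held TGACGTCA (Cartpt) and 4 held GGCGCC. The 4 are not among the BMP target genes listed below, and the window of Id3, which is, does not hold GGCGCC. The 11 windows of these genes (Slc12a7 has a pair) had a median GC content of 60.0%, against 52.4% over all windows, and GGCGCC consists of G and C alone. The T-box half-site AGGTGTGA occurred in 0 of the 10 and in 1.12% of all windows. These are matches of letters and say nothing of binding.

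Over all genes, few differed widely between the groups, and those that did were mostly found more often in Cartpt nuclei. A gene was past the limit where the share of nuclei with a read differed by at least 30 percentage points and the mean CPM by at least 2-fold the same way. Cartpt nuclei were higher for 22 genes, 0.0762% of the 28874 genes with a read and 0.170% of the 12929 genes found in at least 30% of either group. They were lower for 3 genes, 0.0104% and 0.0232%. The higher genes held transcription factors (Tbx3, Id1, Id3), receptors and channels (Chrna6, Chrnb4, P2rx2, Trpv1), a transporter (Slc12a7), a vesicle protein (Syt10) and a calcium-binding protein (Calb1). The lower genes were Gsg1l, Rgma and Gria3. All 25 kept their direction in each of the 4 blocks, except Shf, an adaptor protein of receptor signalling, which was higher in 3. The 25 genes were chosen over these same nuclei, so the blocks only describe how evenly the differences lay. The counts depended on the limit: 80 genes were higher at 20 points and 6 at 40 points.

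**Figure D2:**
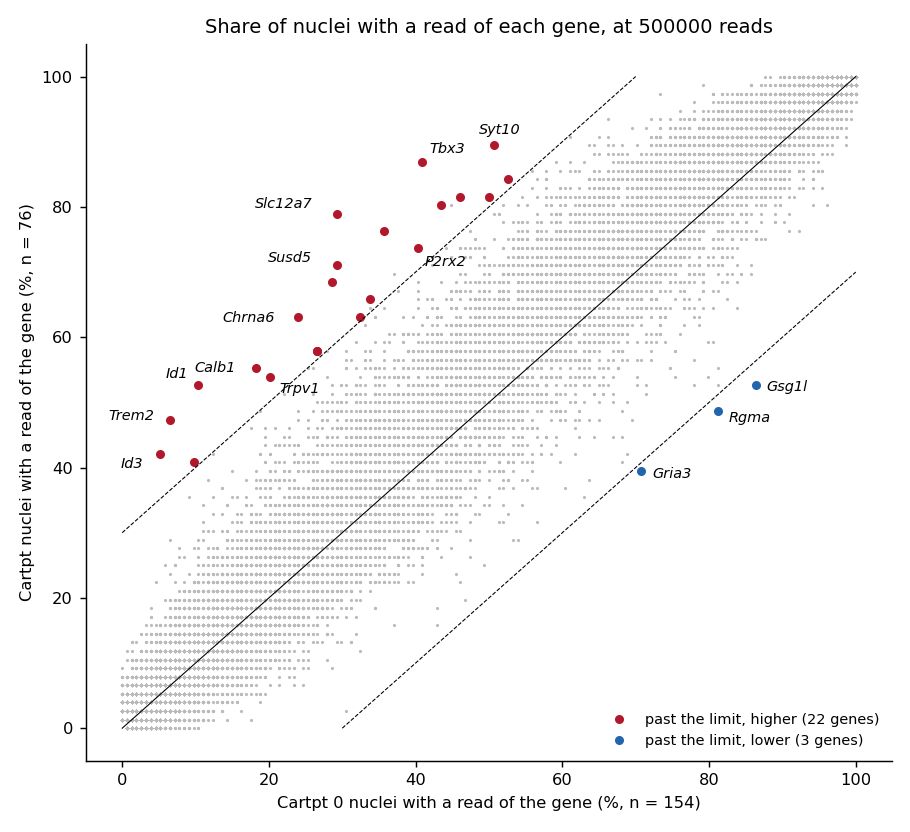
Share of nuclei with a read of each gene at 500000 reads, in percent, in Cartpt 0 nuclei (x axis, n = 154) and Cartpt nuclei (y axis, n = 76). Each grey point is a gene, red and blue points are the 22 higher and 3 lower genes, the solid line marks equal shares and the dashed lines a difference of 30 points; Slc12a7, Tbx3 and Id1 lie farthest above the upper line.

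The transcription factor Tbx3, a T-box repressor of visceral motor and other lineages, had the second widest difference in share, after Slc12a7. Its CPM had a lowest value of 0, a median of 28.5 and a highest of 216 in Cartpt nuclei, and 0, 0 and 151 in Cartpt 0 nuclei. The ranges overlapped, but most Cartpt nuclei had reads and most Cartpt 0 nuclei had none: 66 of 76 (86.8%, 77.1 to 93.5) against 63 of 154 (40.9%, 33.1 to 49.1). The difference in the 4 blocks was 60.4, 24.6, 43.2 and 51.1 points. Tbx3os1, a noncoding gene that overlaps the start of Tbx3 on the opposite strand, had a read in 81.6% and 46.1%. Whether counting used the strand is not given in the sources used here, so reads of the overlap cannot be assigned to one of them. Among the 10 visceral motor factors of the list measured, 1 was past the limit in the higher direction and 0 in the lower. For all genes with a read, the shares were 0.0762% and 0.0104%. Tbx2, a close relative of Tbx3, had a read in 39.5% and 14.9%.

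Id1 and Id3, inhibitors of helix-loop-helix transcription factors that BMP signalling is known to induce, were rare in Cartpt 0 nuclei. Id1 had a lowest CPM of 0, a median of 6.16 and a highest of 169 in Cartpt nuclei, and 0, 0 and 36.6 in Cartpt 0 nuclei. It had a read in 52.6% (40.8 to 64.2) and 10.4% (6.06 to 16.3). Id3 had medians of 0 in both groups, highest values of 214 and 74.4 CPM, and a read in 42.1% (30.9 to 54.0) and 5.19% (2.27 to 9.98). So about as many Cartpt nuclei lacked Id1 as had it, and its ranges overlapped in the 2 groups. Tmem100, a membrane protein that BMP ligands are known to induce in other cells, had a read in 40.8% and 9.74%. Both Id genes had reads together in 34.2% of Cartpt nuclei and 2.60% of Cartpt 0 nuclei. Independent genes of these shares would give 22.2% in Cartpt nuclei. The difference for Id1 ranged over the blocks from 13.8 to 63.6 points.

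The other genes of the BMP pathway were looked up after these values were seen, so the list is a description. Of 12 BMP target genes, 3 were past the limit in the higher direction (Id1, Id3, Tmem100) and 0 were lower. For all genes with a read, 0.0762% were higher and 0.0104% lower. The 12 include these 3, whose values were seen before the list was made. The median difference over the 12 genes was 11.2 points, against 0.701 points over all genes. Id2, a further family member, had a read in 75.0% and 48.1%, with medians of 40.2 and 0 CPM. Smad9, which carries BMP signals and is itself induced by them, had medians of 32.8 and 14.0 CPM. Of 14 BMP receptors, co-receptors and Smads, none was past the limit in the higher direction and 1 was lower, the co-receptor Rgma. By level, 1 of 7 widely detected ones was lower, the type I receptor Acvr1, with medians of 50.4 and 93.1 CPM. Over all widely detected genes, 2.92% were lower. Bmpr1b, a type I BMP receptor, was past neither limit because most nuclei of both groups had a read (97.4% and 73.4%) and fewer than 90% did in Cartpt 0 nuclei. Its level differed nonetheless: the lowest, median and highest CPM were 0.396, 576 and 3261 in Cartpt nuclei and 0, 18.5 and 2932 in Cartpt 0 nuclei. The mean was 822 against 149 CPM, and its ratio in the 4 blocks was 6.35, 3.94, 3.92 and 11.1. The related type I receptor Bmpr1a had medians of 96.7 and 88.1 CPM, and the type II receptor Bmpr2 227 and 198. Rgma, a membrane-bound guidance cue that binds BMPs, had medians of 2.54 and 23.6 CPM and highest values of 242 and 272. It had a read in 48.7% (37.0 to 60.4) and 81.2% (74.1 to 87.0).

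Among receptors for transmitters, 2 subunits of nicotinic acetylcholine receptors and an ATP receptor were higher in Cartpt nuclei. Chrna6, a subunit known from dopamine neurons, had a lowest CPM of 0, a median of 28.1 and a highest of 398 in Cartpt nuclei, and 0, 0 and 158 in Cartpt 0 nuclei. It had a read in 63.2% (51.3 to 73.9) and 24.0% (17.5 to 31.6), a difference of 34.7 to 46.2 points in the 4 blocks. Chrnb4, the beta subunit of the ganglionic receptor, had medians of 85.8 and 1.14 CPM, highest values of 481 and 370, and a read in 81.6% and 50.0%. Its levels overlapped over most of the range. The genes of the partner subunits Chrna3 and Chrna5, which lie next to Chrnb4 on chromosome 9, differed less and were past no limit: Chrna3 had a read in 90.8% and 78.6%, with medians of 205 and 67.0 CPM, and Chrna5 in 75.0% and 50.6%. The spans of Chrna3 and Chrna5 overlap, so their reads may not be separable. All 3 clustered subunits had reads together in 67.1% (55.4 to 77.5) of Cartpt nuclei and 33.1% (25.8 to 41.1) of Cartpt 0 nuclei. Independent genes of these shares would give 55.5% in Cartpt nuclei. Of 46 listed receptors for acetylcholine, monoamines and purines, 3 were higher and 0 lower, against 0.0762% and 0.0104% of all genes with a read.

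The third was P2rx2, an ATP-gated cation channel. It had a lowest CPM of 0, a median of 34.2 and a highest of 318 in Cartpt nuclei, against 0, 0 and 226, and a read in 73.7% (62.3 to 83.1) and 40.3% (32.4 to 48.5). Of 88 listed ion channels, 1 was higher and 0 lower, against 0.0762% and 0.0104% of all genes with a read. The 1 was Trpv1, the capsaicin- and heat-gated channel best known from sensory neurons. It had medians of 4.14 and 0 CPM, highest values of 129 and 153, and a read in 53.9% (42.1 to 65.5) and 20.1% (14.1 to 27.3). The single highest Trpv1 level thus belonged to a nucleus without Cartpt. Reads of both Trpv1 and P2rx2 were found in 42.1% of Cartpt nuclei and 9.09% of Cartpt 0 nuclei. Independent genes of these shares would give 39.8% in Cartpt nuclei.

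**Figure D3:**
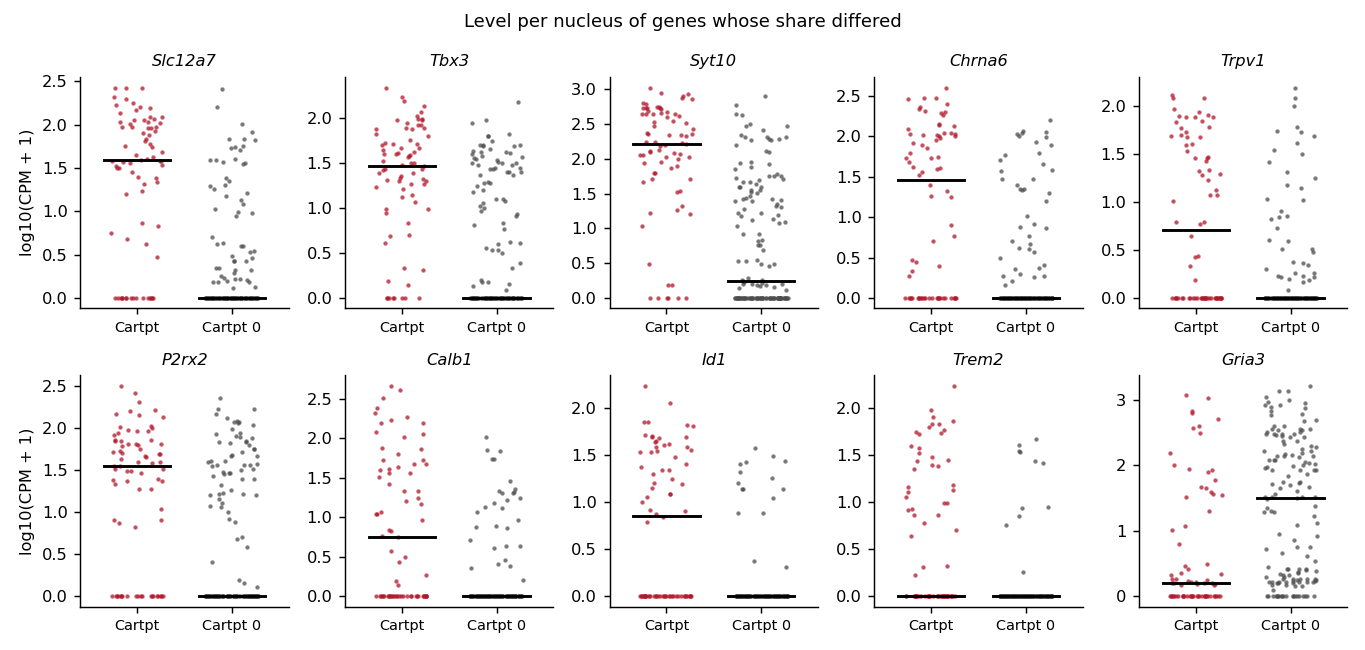
Level of 10 genes in each nucleus, as log10(CPM + 1), for Cartpt nuclei (red, n = 76) and Cartpt 0 nuclei (grey, n = 154); black lines are medians. Slc12a7, Tbx3, Syt10, Chrna6 and P2rx2 have medians above 0 in Cartpt nuclei and at or near 0 in Cartpt 0 nuclei, Gria3 shows the opposite, and the ranges overlap in each panel.

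Slc12a7, a potassium-chloride cotransporter that extrudes chloride from cells, had the widest difference in share of any gene beside Cartpt. Its CPM had a lowest value of 0, a median of 37.7 and a highest of 265 in Cartpt nuclei, and 0, 0 and 258 in Cartpt 0 nuclei. It had a read in 60 of 76 nuclei (78.9%, 68.1 to 87.5) and 45 of 154 (29.2%, 22.2 to 37.1). The difference was 44.9, 50.3, 41.5 and 61.5 points in the 4 blocks. Syt10, a calcium sensor of vesicle release, differed more in level than in share. Its lowest, median and highest CPM were 0, 165 and 1054 in Cartpt nuclei and 0, 0.773 and 803 in Cartpt 0 nuclei, and it had a read in 89.5% and 50.6%. Reads of Slc12a7, Tbx3 and Syt10 occurred together in 72.4% (60.9 to 82.0) of Cartpt nuclei and 12.3% (7.59 to 18.6) of Cartpt 0 nuclei. Independent genes of these shares would give 61.3% in Cartpt nuclei.

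Of 18 listed calcium-binding and nitric oxide genes, Calb1 alone was past the share limit, being higher, as were 0.0762% of all genes. Of the 9 widely detected ones, 4 were higher by level and 1 was lower, against 5.02% and 2.92% of all widely detected genes. Prkg1, a kinase that nitric oxide signalling activates through cyclic GMP, had medians of 1433 and 602 CPM, and Hpcal1, a neuronal calcium sensor, 525 and 300 CPM. Vsnl1, a related sensor, was lower, with 158 and 417 CPM. Calb1, the calcium buffer calbindin, had medians of 4.70 and 0 CPM, highest values of 461 and 102, and a read in 55.3% (43.4 to 66.7) and 18.2% (12.4 to 25.2). Calretinin, encoded by Calb2, had a read in 52.6% (40.8 to 64.2) and 29.9% (22.8 to 37.8), short of the limit. Nos1, neuronal nitric oxide synthase, did not differ in its median, which was 77.7 CPM in both groups, and had a read in 93.4% and 90.3%. Calb1 and Calb2 had reads together in 27.6% of Cartpt nuclei, and 5.19% of Cartpt 0 nuclei. Independent genes of these shares would give 29.1% in Cartpt nuclei.

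Trem2, a receptor best known from microglia, had a read in 47.4% (35.8 to 59.2) of Cartpt nuclei and 6.49% (3.16 to 11.6) of Cartpt 0 nuclei. Its median was 0 CPM in both groups, and its highest values were 169 and 45.9. Of the 8 listed markers of microglia, none was past the limit, and 8 of 8 had a higher share in Cartpt nuclei, by a median of 3.62 points against 0.701 points over all genes. The median number of these markers with a read was 2 in Cartpt nuclei and 1 in Cartpt 0 nuclei, and their part in the Trem2 result was not tested. Their summed level had a lowest value of 3.08, a median of 53.2 and a highest of 313 CPM in Cartpt nuclei, and 0, 47.7 and 700 in Cartpt 0 nuclei. Of the defining markers, C1qa had a read in 14.5% and 9.09%, Csf1r in 11.8% and 7.79%, and Tmem119 in 5.26% and 1.95%; none of the 8 was at 0 in either group. Trem2 was found with Id1 in 39.5% of Cartpt nuclei and 3.25% of Cartpt 0 nuclei. Independent genes of these shares would give 24.9% in Cartpt nuclei.

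The remaining higher genes have varied roles. The cell-surface protein Susd5 had a read in 71.1% and 29.2%, the actin-binding protein Tagln2 in 76.3% and 35.7%, and the protein-folding enzyme Fkbp9 in 68.4% and 28.6%. St6galnac5, a sialyltransferase that builds gangliosides, had a read in 80.3% and 43.5%, and Tm4sf4, a tetraspan membrane protein, in 84.2% and 52.6%. Mrpl36, a protein of the mitochondrial ribosome, had a read in 65.8% and 33.8%. Mrpl36 was the gene whose difference shrank most when nuclei of high mitochondrial share were left out, to 7.44 points. Fam163a had a read in 57.9% and 26.6%, and 2310009A05Rik, an uncharacterised gene, had the same shares. Shf had a read in 63.2% and 32.5%.

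Of the 3 lower genes, Gria3 and Gsg1l belong to AMPA receptors, the fast receptors for glutamate. Gria3, an AMPA receptor subunit, had a lowest CPM of 0, a median of 0.577 and a highest of 1169 in Cartpt nuclei, and 0, 30.8 and 1630 in Cartpt 0 nuclei. It had a read in 39.5% (28.4 to 51.4) and 70.8% (62.9 to 77.8). Gsg1l, an auxiliary protein of AMPA receptors, had medians of 2.00 and 64.9 CPM and a read in 52.6% (40.8 to 64.2) and 86.4% (79.9 to 91.4). Both differences had the same sign in the 4 blocks, from -20.0 to -54.9 points for Gria3 and from -13.8 to -60.6 points for Gsg1l. Of 46 listed receptors for glutamate, GABA and glycine, Gria3 was lower in share and 0 were higher. For all genes with a read, 0.0104% were lower and 0.0762% higher.

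Genes found in at least 90% of the nuclei of both groups cannot differ much in share, so their medians were compared. Of 3426 such genes, 172 (5.02%) had a median CPM at least 1.5 times as high in Cartpt nuclei and 100 (2.92%) were lower by the same factor. The higher genes had a median RefSeq length of 34.1 kb, the lower genes one of 319 kb, and the others one of 69.2 kb. The part of gene length in these differences was not tested. In the nuclei with a mitochondrial share at or below the median (26 Cartpt and 90 Cartpt 0 nuclei), 149 of the 172 genes kept a ratio above 1 and 96 of the 100 one below 1, and 63 and 66 of them were still past the 1.5-fold limit. Of the genes past the share limit, 13 of the 22 higher and 1 of the 3 lower were still past it there. Among the 4 widely detected cholinergic genes listed, 1 was higher by level over all nuclei of the comparison and 0 were lower. This was Slc18a3, with medians of 189 and 121 CPM, a ratio of 1.56.

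The largest ratios among higher genes were for Igsf21, Ghr, Cpne4 and Nrg1. Igsf21, an adhesion protein of inhibitory synapses, had a lowest CPM of 0, a median of 300 and a highest of 853 in Cartpt nuclei, against 0, 64.6 and 978, a ratio of medians of 4.64. Ghr, the growth hormone receptor, had 0, 943 and 3045 CPM against 0, 213 and 2871, a ratio of 4.42. Its ratio in the blocks was 6.36, 3.55, 2.07 and 10.4. Nrg1, which encodes neuregulin 1, a ligand of ErbB receptors that motor neurons supply to their targets and glia, had one of the highest levels: 15.0, 4472 and 15732 CPM in Cartpt nuclei against 40.1, 1246 and 12911, a ratio of 3.59. In the third block that ratio was 1.34. Cpne4, a calcium-dependent membrane-binding protein, had a ratio of 3.66, the adhesion protein Cntn5 3.19, the membrane protein Tmtc2 3.10, Rgs7bp, which anchors a regulator of G proteins, 3.09 and the sorting receptor Sorcs3 2.85. All 8 were higher in each block.

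Genes of the same pathways, listed after Ghr and Nrg1 were seen, were past no limit apart from this pair. Jak2, the kinase that Ghr activates, had medians of 51.0 and 51.6 CPM, and Stat5b, the factor downstream, 59.0 and 63.9. Jak2 had a read in 98.7% (92.9 to 99.97) and 85.7% (79.2 to 90.8), with intervals that did not overlap. Nrg3, a related ligand, had medians of 2336 and 2759 CPM, and the receptor Erbb4 40.2 and 51.5. The lists held 8 growth hormone genes and 7 neuregulin genes.

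**Figure D4:**
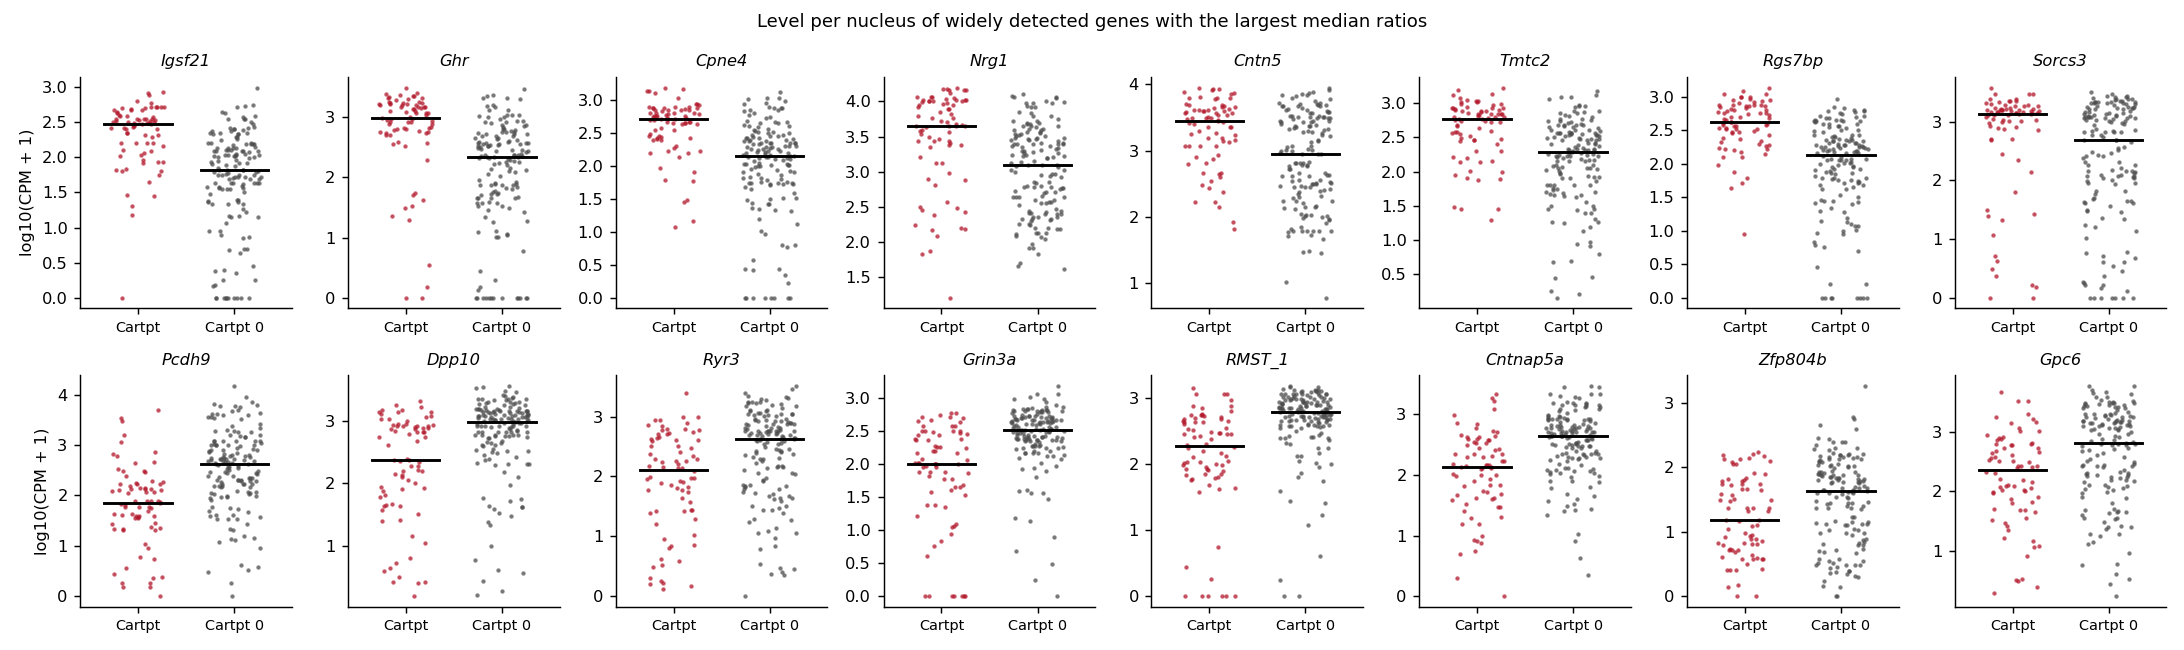
Level of the 8 widely detected genes with the largest ratio of medians in each direction, as log10(CPM + 1) per nucleus, for Cartpt nuclei (red, n = 76) and Cartpt 0 nuclei (grey, n = 154); black lines are medians. The upper row is higher in Cartpt nuclei (ratios 2.85 to 4.64) and the lower row lower (0.169 to 0.363), with ranges that overlap in each panel.

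The 8 lower genes with the largest ratios included adhesion proteins, a glutamate receptor subunit and a calcium channel. Pcdh9, a protocadherin, had a lowest CPM of 0, a median of 70.6 and a highest of 4887 in Cartpt nuclei, and 0, 418 and 14776 in Cartpt 0 nuclei. The ratio of medians was 0.169, and 0.122, 0.199, 0.173 and 0.182 in the blocks. Dpp10, an auxiliary protein of potassium channels, had a ratio of 0.252 but was 1.10 in the second block. Ryr3, a calcium release channel, had a ratio of 0.304, the NMDA receptor subunit Grin3a 0.309 and the noncoding RNA listed as RMST_1 0.310. The adhesion protein Cntnap5a had 0.315, Zfp804b, a zinc-finger protein, 0.333, and Gpc6, a glypican of the cell surface, 0.363. Beside Dpp10, these were lower in each block. Among the receptors for glutamate, GABA and glycine, 6 of 26 widely detected genes were lower (Grin3a, Grin2a, Grm7, Grm8, Grik2 and Gabra2) and 0 were higher. Grm7, a presynaptic glutamate receptor, had medians of 686 and 1417 CPM. Among 39 widely detected guidance and adhesion genes, 7 were higher and 10 lower. Over all 3426 widely detected genes, 5.02% were higher and 2.92% lower. The lower genes as a whole were longer, as given above, and the part of length in the counts of both lists was not tested. Cdh4 and Dcc were higher (medians of 336 and 158 CPM for Cdh4), and Tenm3, Cdh13 and Lrrc4c lower (medians of 791 and 1567 CPM for Tenm3). The lists were drawn up with earlier results of these data known.

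The machinery that makes and stores peptides was present in both groups, and the convertases differed in opposite directions. Of 17 listed genes, 0 passed the share limit, 2 of 12 widely detected ones were higher and 1 lower. Over all widely detected genes, 5.02% were higher and 2.92% lower. Pcsk1, one of the convertases that cut the CART precursor, had medians of 288 and 136 CPM and a read in 96.1% and 88.3%, so it missed the detection condition. Pcsk2, the other, was lower, with medians of 153 and 281 CPM. Scg2 and Syt4, both of dense-core vesicles, were higher, with medians of 525 and 250 CPM for Scg2 and 612 and 395 CPM for Syt4. Cpe, which trims the cut peptides, had 418 and 330 CPM.

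Other peptide genes were mostly in few Cartpt nuclei. Pdyn, the prodynorphin gene, had a read in 6.58% (2.17 to 14.7) of Cartpt nuclei and 20.1% (14.1 to 27.3) of Cartpt 0 nuclei. Cck, the cholecystokinin gene, had a read in 5.26% and 7.79%, Penk, the proenkephalin gene, in 15.8% and 18.8%, and Nppb, a natriuretic peptide gene, in 17.1% and 25.3%. Vip had a read in 14.5% and 7.79%, and Sst, the somatostatin gene, in 13.2% and 4.55%. Counted from 1 read, the intervals of these genes overlapped between groups. From 5 reads, Pdyn was found in 3.95% (0.822 to 11.1) and 18.2% (12.4 to 25.2), and these intervals did not overlap. Those of the others did. Counted from 5 reads, 44 of 76 Cartpt nuclei (57.9%) had none of these 6 peptides, 18 had 1, 12 had 2 and 2 had 3. Of the Cartpt 0 nuclei, 68 of 154 (44.2%) had none. Gal, the galanin gene, was found in most nuclei and was lower in level, with medians of 126 and 256 CPM. Adcyap1, which encodes the peptide PACAP, had medians of 194 and 113 CPM.

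Receptors for gut hormones and other peptides had no gene past the limit among 53 listed. Npy2r, the receptor for peptide YY and neuropeptide Y, had a read in 80.3% (69.5 to 88.5) and 44.8% (36.8 to 53.0), but its mean CPM of 120 and 61.0 fell just under the fold needed. Its lowest, median and highest CPM were 0, 83.1 and 597 in Cartpt nuclei and 0, 0 and 487 in Cartpt 0 nuclei. Cckar, the receptor for cholecystokinin, had a read in 18.4% (10.5 to 29.0) and 42.9% (34.9 to 51.1), with mean levels of 13.2 and 49.6 CPM. Th, tyrosine hydroxylase, had a read in 32.9% and 48.1%. Within the 135 nuclei with a read of Npy2r (61 Cartpt and 74 Cartpt 0), all 22 higher and 3 lower genes kept their direction. Of them, 18 and 2 were still past the limit. The difference for Chrna6 was 41.1 points. In nuclei without a read of Npy2r (15 and 80) it was 9.17 points, and Gria3 was in the opposite direction, at 4.58 points.

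Some genes past neither limit differed in mean CPM by at least 2.5-fold and were found in at least 50% of a group. They numbered 16 higher and 36 lower, and were looked for after the values were seen. Beside Bmpr1b and Id2, the higher ones held Kcng1, a modifier of potassium channels (medians of 116 and 13.5 CPM), Galnt18, an enzyme of sugar attachment (701 and 70.1 CPM), and Shisa6, an AMPA receptor partner (169 and 30.9 CPM). Ntsr1, the neurotensin receptor, had a read in 55.3% and 25.3%, just short of the limit. The lower ones held Slit1, a repellent guidance cue (52.6% and 81.2% with a read), and receptors of orexin (Hcrtr2, 38.2% and 55.2%) and of neuropeptide FF (Npffr2, 44.7% and 66.9%). The Hox gene Hoxa5, which marks hindbrain and neck levels, had a read in 61.8% and 33.1%.

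Within the 76 nuclei, several of these genes differed with the level of Cartpt. Cartpt chose the nuclei, and the genes were named from the same comparison, so these values are a description. The 38 nuclei of higher Cartpt level had a median of 165 CPM and the 38 of lower level one of 14.1 CPM. Nrg1 had a median of 7753 CPM in the former and 3285 CPM in the latter, and Ghr 1384 and 642 CPM. Id1 had a read in 65.8% and 39.5%, Id3 in 55.3% and 28.9%, and Trem2 in 57.9% and 36.8%. Rgma had a read in 36.8% and 60.5%. Tbx3 and Syt10 differed less, with 89.5% and 84.2% for Tbx3 and 92.1% and 86.8% for Syt10. Fkbp9, a gene higher in Cartpt nuclei, went the other way, with 63.2% in the former and 73.7% in the latter. Pdyn had a read in 0 of the former 38 nuclei, which allows a share of up to 7.89% (a floor of 3 nuclei, in place of an interval), and in 13.2% of the latter.

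A nucleus carried several of the 22 higher genes at once. Cartpt nuclei had reads of a lowest number of 4, a median of 16 and a highest of 22, and Cartpt 0 nuclei of 0, 6 and 18. The 7 nuclei with 1 to 4 Cartpt reads had a median of 6. These genes were chosen from the same nuclei, so the first pair of numbers describes the choice. The 28 nuclei with a Grp read that met the other conditions took no part in it. Cartpt had at least 5 reads in 17 of them (60.7%, 40.6 to 78.5). In these 17 the median was 13 of the 22 genes, and in the 8 Grp nuclei with 0 Cartpt reads it was 11.5. Here 16 of the 22 higher genes and 3 of the 3 lower genes had the same direction, with median differences of 8.82 and -40.4 points, and 2 of the 22 reached 30 points. Gria3 had a read in 8 of 17 and 8 of 8. Id1, Id3, Chrna6, Chrnb4, Tbx3 and 2310009A05Rik went the other way, with Id1 in 5 of 17 and 3 of 8. Of the widely detected genes named above, 6 of 8 higher and 6 of 8 lower had the same direction. Nrg1 had a median of 6340 CPM in the 17 nuclei and 3075 CPM in the 8.

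Clusters of the 237 nuclei, built without Cartpt and Grp, held Cartpt nuclei unevenly. Cluster 1, led by Bmpr1b, Syt10, Syndig1 and Met, had 33 Cartpt nuclei among 43 (76.7%, 61.4 to 88.2) and held 43.4% of all Cartpt nuclei. Cluster 10, led by Npy4r and Ntsr1, had 8 of 10 (80.0%, 44.4 to 97.5). Cluster 7, led by Alox5 and Atf3, the latter known from injured neurons, had 8 of 15 (53.3%, 26.6 to 78.7). Clusters 3, 4, 5 and 9 had 10.0% or less, among them cluster 3, led by Pdyn, with 3 of 30, and cluster 9, with Cckar and Cck among its leading genes, with 1 of 12. Cartpt nuclei occurred in each of the 11 clusters. The share in the matching cluster was 76.2% with 20 neighbours and 76.7% at a resolution of 0.5. The next highest share of any cluster was 33.3% and 32.4% in these settings. The shares of 80.0% and 53.3% in clusters 10 and 7 thus depended on the setting. The clusters were built from the genes described above, so the genes that lead them are no further result. Within cluster 2, which held 9 Cartpt and 28 Cartpt 0 nuclei, 21 of the 22 higher genes differed in the same direction, by a median of 34.1 points. Within cluster 1 (33 and 10 nuclei) 18 of the 22 did, by a median of 25.5 points. Of the 3 lower genes, 3 were lower within cluster 1 and 2 within cluster 2. The 22 and 3 genes were chosen over these same nuclei, so these counts are a description and no further support. Rgma had a read in 6.06% and 70.0% of the nuclei of cluster 1, and in 100% and 78.6% of those of cluster 2.

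**Figure D5:**
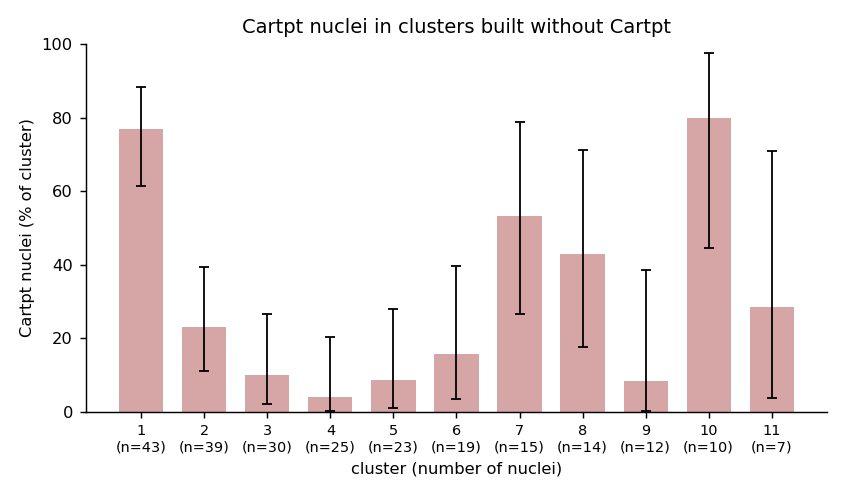
Share of Cartpt nuclei in each cluster, in percent of the nuclei of the cluster, with exact 95% binomial intervals that cover counting error only; the number of nuclei stands under each bar. Clusters 1 and 10 lie at 76.7% and 80.0%, and clusters 3, 4, 5 and 9 at 10.0% or less.

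Markers of other cell types were past no share limit. The lists covered neurons that use glutamate, GABA, catecholamines or serotonin, and astrocytes, oligodendrocytes, their precursors, ependyma and vessels. The summed astrocyte markers had a median of 169 CPM in Cartpt nuclei and 138 CPM in Cartpt 0 nuclei, and those of oligodendrocytes 74.7 and 69.9 CPM. Slc6a2, the noradrenaline transporter, had a read in 25.0% (15.8 to 36.3) and 7.14% (3.62 to 12.4), and Agt, the angiotensinogen gene used as an astrocyte marker, in 22.4% (13.6 to 33.4) and 7.14% (3.62 to 12.4). Their intervals did not overlap between groups, and their part in the results was not tested. Of 10 somatic motor markers none was past the limit. Leaving out nuclei with more somatic than visceral markers gave 31 higher genes, among them the 22.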

How the data were processed

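The deposited table holds read counts per gene, not normalised, for 29779 genes in 383 nuclei of the mouse vagal motor nucleus. All columns matched 1 labelled nucleus each. Per the submitters' processing notes, the build was GRCm38 and the tools included bcl2fastq, STAR, Picard, edgeR and Seurat 3.0, with no roles stated here. How reads were assigned to genes, with which annotation and strand setting, is not given in the sources used here, and the files gave no reason to treat any nucleus as a copy of another (0 identical pairs).

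The rule on reads, genes, Chat, Slc5a7, Tbx20, Grp and Cartpt, the gene lists and the comparisons were chosen with earlier results of these data known. Each nucleus was thinned to 500000 reads with a fixed random draw, and a gene counted as found from 1 read. Levels are CPM of all reads of the nucleus. A gene was past the share limit at 30 points and a 2-fold mean CPM, and a widely detected gene (90% of both groups) at a 1.5-fold median. Named were Cartpt, each listed gene past the share limit, up to 15 genes in each direction by difference in share with intervals that did not overlap, 8 in each direction by ratio of medians, and 17 genes always given. Other genes were named after their values were seen. They include the rest of those past the limit, other members of the lists, the genes of 4 added lists and the genes past neither limit.

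No test was made, since the series is 1 sample. Clusters came from 2000 variable genes, 15 components, 10 neighbours and resolution 1 in scanpy 1.11.5, and no doublet caller was run on nuclei sorted 1 per well. Promoter sequences, gene positions and lengths are from RefSeq (GRCm38.p6). Python 3.11.15, numpy 2.4.6, pandas 2.3.3 and scipy 1.17.1 were used, and the comparison was checked on simulated data. The precision rests on 76 and 154 nuclei and on total counts of 532391 to 4699420 reads per nucleus.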

Additional observations from a re-analysis of the deposited data

Results flagged for a closer look

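Nuclei outside the comparison also carried Cartpt. In the 28 nuclei with a Grp read that met the other conditions, 60.7% had at least 5 reads of Cartpt, against 32.1% (26.2 to 38.4) of the 237 nuclei without a Grp read. The difference was not tested. In the 29 nuclei with 0 reads of Tbx20 and the other conditions met, 5 did (17.2%, 5.85 to 35.8). In these 5 nuclei the median number of the 22 higher genes with a read was 4, as in the 22 such nuclei without Cartpt, and 10 of the 22 genes had the same direction as in the report.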

How the results depend on the processing

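No paired analysis was possible because the labels name no animals, batches or replicate numbers. All 22 higher and 3 lower genes kept their direction under each alternative, with 1 exception: Gria3 was higher by 4.58 points in nuclei without a read of Npy2r. These genes were chosen for their difference in the same nuclei, so a kept direction is no further support. Some alternatives could not change a direction: leaving out nuclei over 10% mitochondrial reads removed none. Other limits of points, size factors and a filter on genes found in under 10% of both groups left the shares as they were. The settings on Npy2r and on mitochondrial share were chosen after seeing the data. The number of genes past a limit moved more. Counting a gene from 5 reads gave 22 higher and 6 lower genes by share, of which 16 and 1 were among the 22 and 3 of the report (Trem2 differed by 26.4 points), and 76 higher and 59 lower by level. Without thinning, 152 were lower by level and 0 listed genes lower by share. Thinning to 250000 reads gave 2 listed lower genes. Cartpt nuclei from 20 reads gave 8 lower genes, 2 of them listed, and from 1 read 1 and 0. With median-of-ratios size factors 0 listed genes were lower. A limit of 20 points gave 80 higher and 28 lower genes (11 and 4 listed), and one of 40 points 6 and 0 (1 and 0 listed). Low mitochondrial share gave 52 higher and 21 lower genes, 158 lower by level and 5 listed lower. Nuclei with a read of Npy2r gave 14 lower genes, 4 of them listed. Those without one gave 157 higher and 26 lower genes, 356 and 233 by level, and 3 listed lower, from 15 Cartpt nuclei. Leaving out each block of nucleus numbers in turn gave 20 to 35 higher genes, 1 to 11 lower genes and 0 to 2 listed lower genes, with 118 to 239 higher and 82 to 128 lower by level. Of the 22 higher genes, 15 to 22 remained past the limit in these. Of the 3 lower genes, 0 to 3 did: 0 without the third block, and 1 without the first. For the counts in this paragraph the cause was not tested, beside the fewer nuclei and the changed limits named. Keeping Grp nuclei gave 22 and 4 genes, with 15 and 3 in common with the report (Chrnb4 differed by 23.6 points). Depth limits genes of few reads: at 500000 reads a share near 0 cannot tell a silent gene from a rare one.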
